A study of Mus musculus with 10 samples.

Results

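Transcripts of 10 membrane transporter genes were followed in mouse kidney: the efflux pump genes Abcb1a, Abcb1b, Abcc2, Abcc3, Abcc4 and Abcg2, the exchanger gene Slc47a1, and the organic anion transporter genes Slco1a1, Slco1a6 and Slco4c1. They were taken by symbol from a table of 24062 genes. All 10 were counted in every library and all 10 passed the filter on low counts, which kept 15547 genes. The series held 10 polyadenylated RNA libraries of whole kidney from adult mice. Of these, 4 were from Ehhadh knockout animals (KO) and 4 from Ehhadh wild-type animals (WT), all C57BL/6N males. A single library each came from a wild-type animal of the strains 129S2_SvPasCrl and DBA_2J. Ehhadh encodes a peroxisomal enzyme of fatty acid β-oxidation. The labels give no further allele, treatment or age in weeks, and the loss of Ehhadh is not described as limited to a cell type.

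Kidney proximal tubule cells clear drugs, toxins, hormones and metabolites from blood into urine in steps: carriers at the blood-facing membrane take them up, and pumps and exchangers at the luminal membrane let them out. ATP-binding cassette (ABC) pumps use ATP to drive their substrates out of the cell. SLCO proteins, also called organic anion transporting polypeptides, carry bulky organic anions such as steroid conjugates, bile acids and thyroid hormones. In the mouse a pair of neighbouring genes, Abcb1a and Abcb1b, encodes P-glycoprotein, which a single gene encodes in humans.

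The genes lie on 6 chromosomes in build mm10, and in the counting annotation none shares exon bases with another gene. Abcb1a (chromosome 5, 8660092 to 8748570, plus strand) is followed on the same strand by Abcb1b (8798147 to 8866314), each with 28 exon entries. Slco1a1 (chromosome 6, 141907281 to 141946962, minus strand) and Slco1a6 (142085768 to 142186149, minus strand) also lie near each other. Slco1a1 and Slco1a6 are called neighbours here for that reason, and genes between them were not looked for. Abcg2 lies elsewhere on chromosome 6 (58596672 to 58692451). Abcc3 (94343295 to 94392976) and Slc47a1 (61343400 to 61378075) are on chromosome 11, Slco4c1 (96818784 to 96872171) on 1, Abcc4 (118482692 to 118706219) on 14 and Abcc2 (43782308 to 43838218) on 19. Of the 100-base windows of the longest coding transcript, 8.51% in Abcb1a and 8.89% in Abcb1b occur unaltered in a transcript of another gene, mostly in each other (367 windows). For Slco1a1 the share was 0.867% and for Slco1a6 2.14%, and for the other 6 genes 0%. Reads from those shared stretches cannot be assigned to one gene with certainty.

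RefSeq start regions (build GRCm38.p6, the same assembly as mm10) were found for 8 of the 10 symbols. Those of Abcb1b, at chr5:8797897-8798196, and Slco1a1, at chr6:141946913-141947212, are shown because these are the genes whose level changed with genotype. That of Slco1a6, at chr6:142186100-142186399, is shown as the neighbour of Slco1a1. Each runs 5′ to 3′ on the strand of its gene, from 250 bases before to 50 bases after the start, and capitals mark matches to the motifs named after the sequences.
Abcb1b: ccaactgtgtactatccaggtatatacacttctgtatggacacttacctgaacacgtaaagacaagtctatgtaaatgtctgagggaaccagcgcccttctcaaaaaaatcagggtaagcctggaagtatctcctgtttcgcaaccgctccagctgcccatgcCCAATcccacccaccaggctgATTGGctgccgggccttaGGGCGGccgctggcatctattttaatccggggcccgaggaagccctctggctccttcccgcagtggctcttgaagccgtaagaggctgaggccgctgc
Slco1a1: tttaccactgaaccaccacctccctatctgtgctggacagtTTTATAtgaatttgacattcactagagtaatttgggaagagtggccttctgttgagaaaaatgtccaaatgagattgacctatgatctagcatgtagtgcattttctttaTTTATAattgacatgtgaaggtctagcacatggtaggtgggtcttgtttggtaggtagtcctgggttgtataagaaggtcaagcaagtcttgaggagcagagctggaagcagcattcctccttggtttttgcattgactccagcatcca
Slco1a6: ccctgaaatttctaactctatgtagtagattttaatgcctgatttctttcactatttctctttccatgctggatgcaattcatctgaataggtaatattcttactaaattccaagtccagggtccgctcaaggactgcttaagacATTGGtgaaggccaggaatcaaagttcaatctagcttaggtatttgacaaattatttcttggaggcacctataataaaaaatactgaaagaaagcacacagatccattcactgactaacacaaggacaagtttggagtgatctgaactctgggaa

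In Abcb1b the capitals mark the CCAAT box (CCAAT on either strand) beginning 87 and 66 bases before the start, and a GC box (GGGCGG) at 48 bases. A CCAAT box occurs in 37.4% of all 32851 such regions and a GC box in 35.7%. The Slco1a1 region holds matches to the TATA box (TATAAA, either strand; 13.6% of regions) at 209 and 99 bases before the start, and that of Slco1a6 a CCAAT box at 105 bases. Where motifs overlap, each was counted on its own. The Abcb1b region has 12 CG dinucleotides, that of Slco1a6 has 1 and that of Slco1a1 none. Other motifs searched on both strands were the antioxidant response element bound by NRF2 (TGACNNNGC, in 12.4% of regions) and the core bound by AHR (GCGTG, 32.4%). Those for HNF1 (0.0609%), for HNF4 or PPAR (0.0396%) and for PXR (0%) were searched too. None of these 5 has a match in the 3 windows shown, and a match is a description of letters, not of binding.

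The summed gene counts were 41.49 to 52.3 M (mega) in KO, 19.79 to 35.99 M in WT, 51.19 M in 129S2_SvPasCrl and 57.25 M in DBA_2J. Every KO library was deeper than every WT library. Levels are given as CPM, the count per M of a scaled library total, with the scaling taken over the 10 libraries. Ehhadh itself read 175 to 327 CPM in KO and 2088 to 3418 CPM in WT (edgeR log2 fold change −3.26, SE 0.21, adjusted p = 1.86e-05). In the single strain libraries it read 788 CPM (129S2_SvPasCrl) and 796 CPM (DBA_2J), above every KO and below every WT library. Some sample titles begin with E and some do not, with 2 KO and 2 WT animals of either kind. What the letter stands for is not in the labels. Differences by title form are plotted for all 10 genes and given in the text for several of them. Calls in the lists by title form come with the other settings. Within a form 2 libraries stand against 2, where groups often do not overlap, and the share over all genes was not counted. Over all tested genes, edgeR's quasi-likelihood test called 11% in KO against WT at an adjusted p under 0.05, of which 982 were higher and 728 lower. With upper quartile scaling the split was 832 higher and 938 lower. The groups did not overlap in 17.7% of genes.

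Of the 10 transporter genes, Abcb1b rose in KO, Slco1a1 fell, and 8 did not pass the test. This is 2 of 10 called, against 11% of all genes, with 1 higher (6.32% of all genes) and 1 lower (4.68%). The median log2 fold change was 0.08 over the 10 genes and −0.0057 over all tested genes, and the median size without regard to sign was 0.15 and 0.14. For Abcb1a and Abcb1b every KO library was above every WT library, so 2 of 10 genes had separate groups with KO higher (9.53% of all genes) and 0 with KO lower (8.18%). The plot of CPM by library shows all values, and the plot of fold changes shows them with their errors and within each title form.

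**Figure D1:**
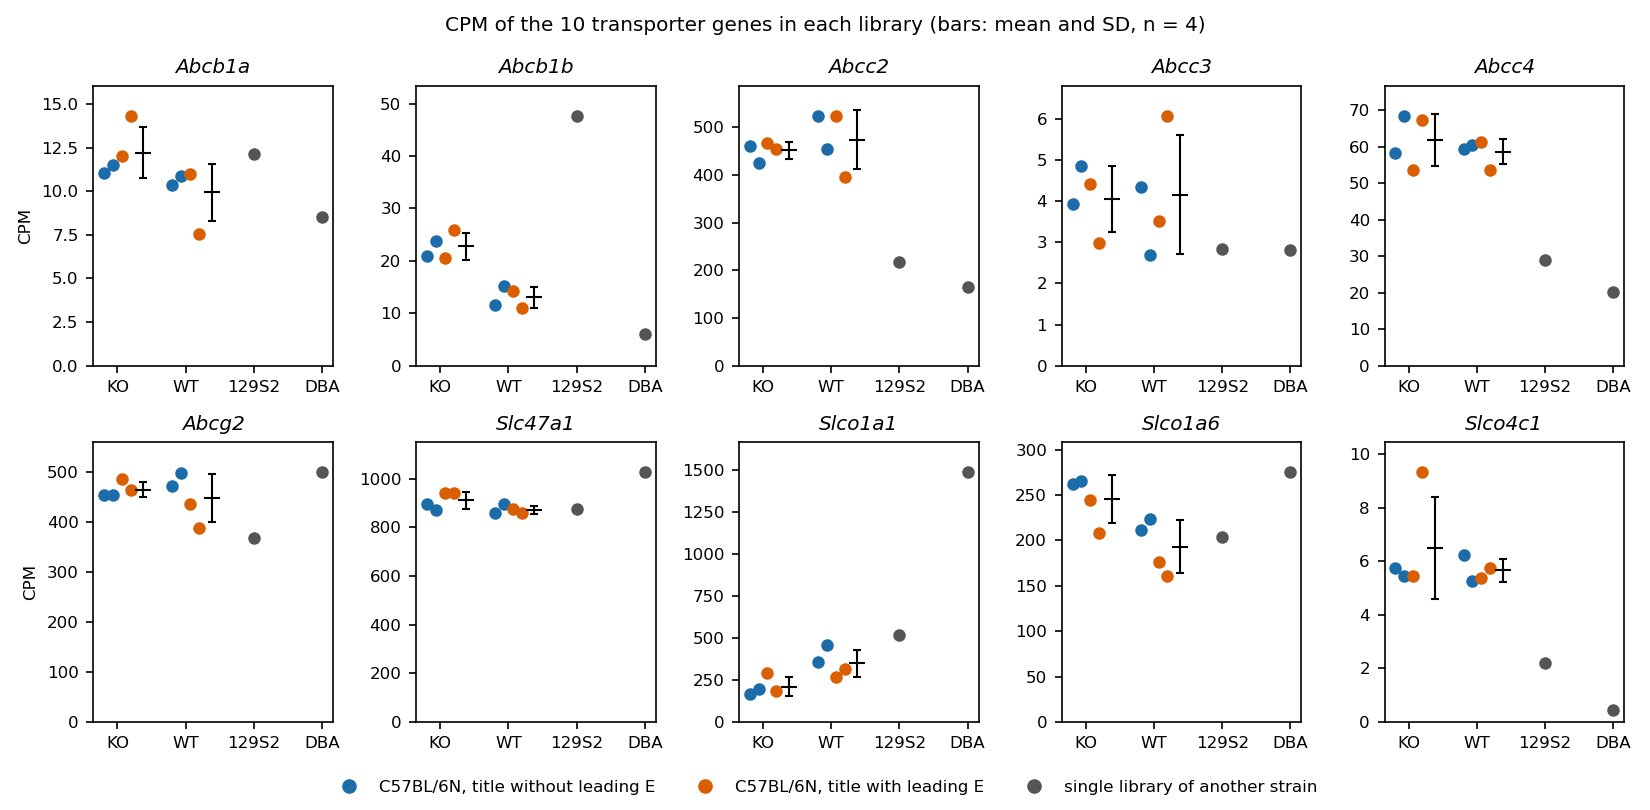
CPM (y axis, linear from 0, a scale for each gene) of the 10 transporter genes in KO, WT, 129S2_SvPasCrl and DBA_2J libraries (strain names shortened on the axis). Points are libraries, coloured by title form, and bars are the mean and SD of 4. For Abcb1b the KO points lie between 20.5 and 25.96 CPM and the WT points between 11.1 and 15.2.

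The P-glycoprotein gene Abcb1b read 20.9, 23.8, 20.5 and 25.96 CPM in KO replicates 1 to 4, and 11.6, 15.2, 14.3 and 11.1 CPM in the WT replicates. Every KO library stood above every WT library. The means were 22.8 ± 2.58 and 13.05 ± 1.999 CPM (SD, n = 4 each), a 1.75-fold rise (edgeR log2 fold change 0.80, SE 0.12, adjusted p = 0.00174). It passed with any 1 library left out, at log2 fold changes of 0.73 to 0.89. Differences within the title forms were 0.87 with the leading E and 0.75 without it, each without overlap, and with the leading E alone the adjusted p in edgeR was 0.0899.

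Its neighbour Abcb1a was lower and less separated. It stood at 11.03, 11.5, 12.02 and 14.3 CPM in the KO replicates, against 10.4, 10.9, 10.99 and 7.53 CPM in WT. The groups lay side by side, KO replicate 1 just above WT replicate 3. The log2 fold change of 0.30 (SE 0.13) did not pass (edgeR adjusted p = 0.182), and it was 0.53 with the leading E and 0.08 without it. Whether Abcb1b differed more than Abcb1a was not tested. Within a library, the ratio of Abcb1b to Abcb1a per kilobase of exon was 2.17, 2.38, 1.95 and 2.08 in KO. In WT it was 1.29, 1.60, 1.49 and 1.68. Both groups thus held more Abcb1b than Abcb1a transcript, and the KO ratios were all above the WT ratios. This ratio was chosen after the values were seen, and the 367 shared windows bear on it.

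**Figure D2:**
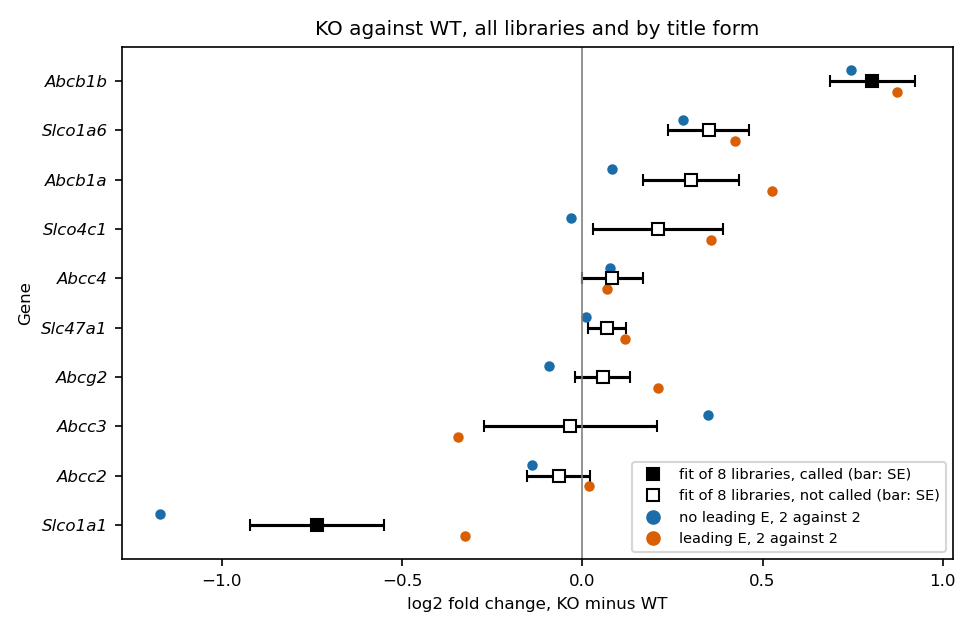
Log2 fold change of KO minus WT (x axis) for each transporter gene (y axis). Squares are the edgeR fit of 8 libraries with its SE, filled where called, and dots are differences within a title form, 2 against 2. Abcb1b lies at 0.80 with both dots beside it, while for Slco1a1, at −0.74, the dots stand apart at −1.17 and −0.33.

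Abcc2 and Abcg2, the most abundant pumps, differed little between genotypes. Abcc2 encodes MRP2, a luminal pump for glutathione and glucuronide conjugates. It read 461, 425, 466 and 453 CPM in KO and 523, 455, 522 and 394 CPM in WT, so that all KO libraries lay inside the WT range (log2 fold change −0.07, SE 0.09). Abcg2 encodes the luminal pump BCRP, which also exports urate. It read 453, 454, 486 and 464 CPM in KO against 471, 496, 436 and 386 CPM in WT (0.06, SE 0.08). Its difference was 0.21 in animals with a leading E and −0.09 in those without. Neither form's libraries overlapped, which happens easily with 2 against 2. The 2 forms thus went opposite ways for Abcg2, and the test of form by genotype gave an edgeR adjusted p of 0.741.

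Abcc4 encodes MRP4, which exports cyclic nucleotides, urate and nucleotide drugs. It read 58.3, 68.5, 53.8 and 67.5 CPM in KO and 59.4, 60.4, 61.4 and 53.6 CPM in WT, with overlap (log2 fold change 0.08, SE 0.08). Abcc3, which encodes the blood-facing pump MRP3, was the scarcest of the 10, at 85 to 205 counts in the 8 libraries. It ran from 2.99 to 4.86 CPM in KO and from 2.68 to 6.07 CPM in WT (−0.03, SE 0.24). Its difference was −0.34 with the leading E and 0.35 without it, with overlap in both. The edgeR adjusted p values were 0.585 for Abcc4 and 0.951 for Abcc3.

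Slc47a1 encodes MATE1, the luminal exchanger that swaps protons for organic cations such as creatinine and metformin. It was the most abundant of the genes, at 896, 871, 940.2 and 940.4 CPM in KO and 859, 894, 873 and 860.0 CPM in WT. The standard deviation was 1.87% of the mean in WT, the lowest of the 10 genes, and 3.79% in KO. Its log2 fold change was 0.07 (SE 0.05, edgeR adjusted p = 0.46), with the highest WT library above the lowest KO library.

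Slco1a1 encodes an organic anion carrier of the proximal tubule whose kidney level is known to depend on androgens. In KO it read 165, 194, 292 and 184 CPM, and in WT 356, 456, 270 and 313. KO replicate 3 lay inside the WT range and the other KO libraries lay under it. The means were 209 ± 56.9 and 349 ± 79.5 CPM (SD, n = 4 each), a 1.67-fold fall (edgeR log2 fold change −0.74, SE 0.19, adjusted p = 0.0292). Leaving out 1 library at a time, the call was lost in 5 of 8 fits, those lacking WT replicate 1 or 2 or KO replicate 1, 2 or 4 (edgeR adjusted p = 0.0606 to 0.0802). Between animals without a leading E the difference was −1.17 with no overlap, and between those with it −0.33 with overlap. A direct test of form by genotype gave a log2 difference of −0.88 (edgeR adjusted p = 0.674).

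Slco1a6, the neighbouring gene, encodes a carrier of the same subfamily. It read 263, 266, 245 and 209 CPM in KO and 211, 224, 176 and 161 CPM in WT. The lowest KO library lay under the 2 highest WT libraries, while within each title form the groups did not overlap. Its log2 fold change was 0.35 (SE 0.11) and did not pass (edgeR adjusted p = 0.0688). It passed with title form as a term (0.00659 in edgeR) and in DESeq2 (0.0269). The per-kilobase ratio of Slco1a1 to Slco1a6 was 0.444, 0.515, 0.844 and 0.624 in KO, and 1.19, 1.44, 1.08 and 1.38 in WT. Per kilobase, Slco1a1 was thus the more abundant of the neighbours in every WT library and the less abundant in every KO library. This measure was chosen after the values were seen. In KO replicate 3 Slco1a1 had the higher CPM (292 against 245), and the order there rests on the exon lengths of 3967 and 2804 bases.

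**Figure D3:**
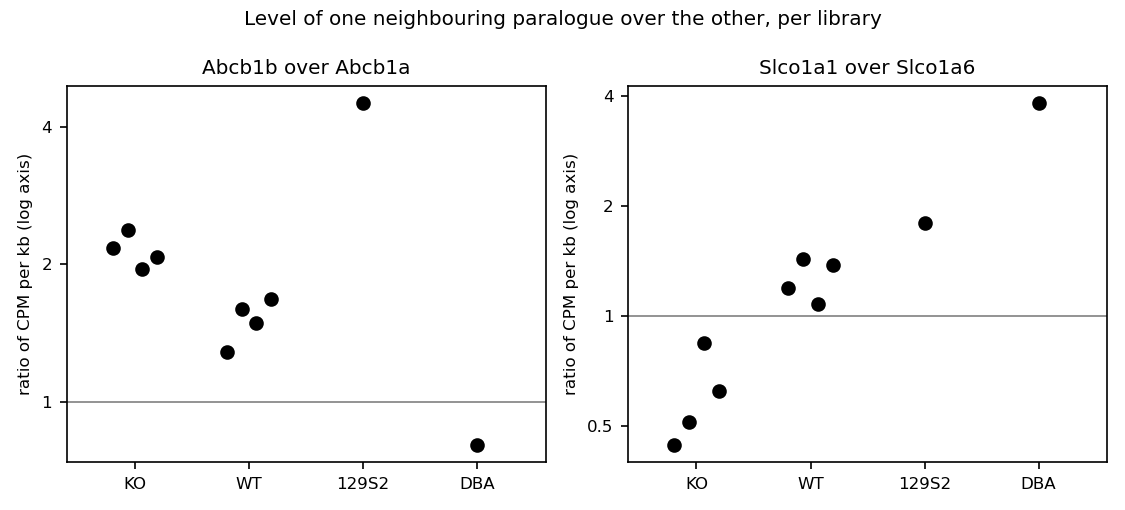
Ratio of CPM per kilobase of 1 neighbouring gene over the other (y axis, log axis) in each library, with Abcb1b over Abcb1a on the left and Slco1a1 over Slco1a6 on the right. Each point is 1 library. The KO libraries run from 0.444 to 0.844 for Slco1a1 over Slco1a6 and the WT libraries from 1.08 to 1.44.

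Slco4c1 encodes a carrier of the blood-facing membrane that takes up cardiac glycosides and thyroid hormones. It read 5.75, 5.45, 5.47 and 9.34 CPM in KO and 6.23, 5.27, 5.398 and 5.76 CPM in WT. Only KO replicate 4 lay outside the WT range. Its log2 fold change was 0.21 (SE 0.18, edgeR adjusted p = 0.511), and −0.016 without that library.

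Levels of different genes were compared per kilobase of exon in the WT libraries. Slc47a1 was highest at 331 ± 6.19 CPM per kilobase, then Abcg2 at 179.6 ± 19.2. Slco1a1 (87.9 ± 20.03), Abcc2 (87.9 ± 11.5) and Slco1a6 (68.9 ± 10.5) followed (SD, n = 4). Abcc4 stood at 9.96 ± 0.589, Abcb1b at 3.004 ± 0.46, Slco4c1 at 2.37 ± 0.18, Abcb1a at 1.998 ± 0.328 and Abcc3 at 0.831 ± 0.289 CPM per kilobase. Neighbours in this order whose WT ranges overlapped were Slco1a1 and Abcc2, Abcc2 and Slco1a6, Abcb1b and Slco4c1, and Slco4c1 and Abcb1a. The other 5 neighbouring pairs had separate ranges. In KO the order was the same except among Slco1a6 (87.6), Abcc2 (83.7) and Slco1a1 (52.7), which stood in that order.

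The single wild-type libraries of the other strains lay further from WT C57BL/6N than KO did for several of the genes. They have no replicate and no test was run, and the intervals given are exact Clopper-Pearson 95% intervals that cover counting error only. Reads of every strain were counted on the same build, mm10. The part of sequence differences between strains in these counts was not tested. A library was called apart when it lay outside the range of the 4 WT libraries and differed by 1 or more on the log2 CPM scale from their mean. In 129S2_SvPasCrl 1 gene of the 10 was apart and higher, against 3.71% of all tested genes, and 3 were apart and lower, against 5.72%. In DBA_2J 1 was apart and higher (4.56% of all genes) and 4 were apart and lower (8.07%). Lying outside the WT range was itself common, for 7 of the 10 genes in 129S2_SvPasCrl (64.7% of all genes) and 8 in DBA_2J (72.5%).

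**Figure D4:**
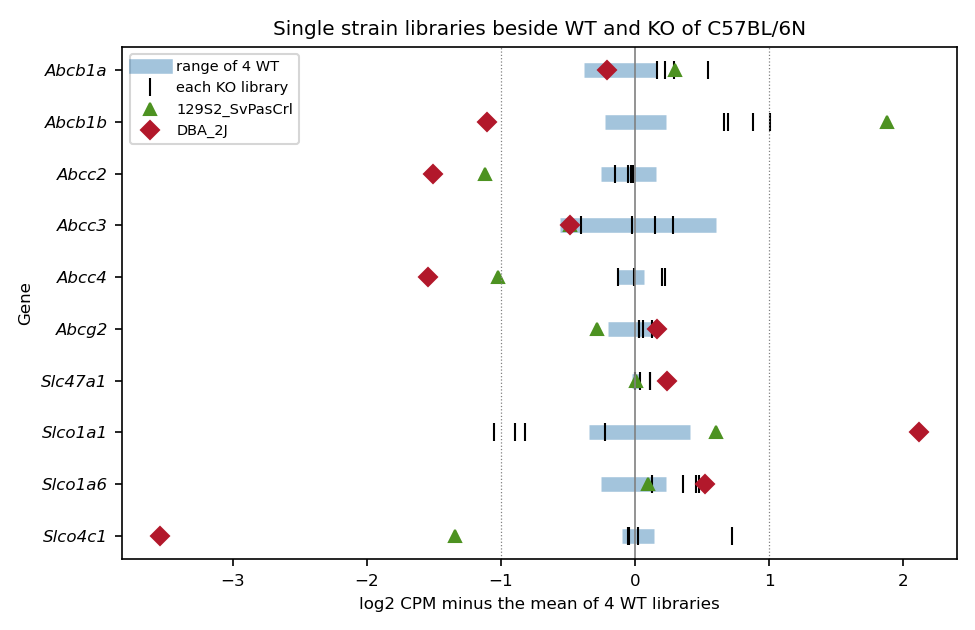
Log2 CPM minus the mean of the 4 WT libraries (x axis) for each transporter gene (y axis). Bars are the WT range, ticks the KO libraries, triangles 129S2_SvPasCrl and diamonds DBA_2J, and dotted lines mark a difference of 1. Slco4c1 in DBA_2J lies farthest left, at −3.54, and Slco1a1 in DBA_2J farthest right, at 2.12.

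Abcb1b went opposite ways in the strains. It read 47.6 CPM (45.7 to 49.6) in 129S2_SvPasCrl, a log2 difference of 1.88 from WT and above every KO library, and 5.99 CPM (5.36 to 6.68) in DBA_2J, a difference of −1.10. Abcb1a read 12.1 and 8.51 CPM in the same libraries and was not apart in either. Abcb1b thus stood at 4.50 times the level of Abcb1a per kilobase in 129S2_SvPasCrl and at 0.806 times in DBA_2J, where Abcb1a was the more abundant of the pair.

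Slco1a1 was highest of all libraries in DBA_2J, at 1485 CPM (1475 to 1496), a log2 difference of 2.12. In 129S2_SvPasCrl it read 520 CPM (513 to 526), above the WT range but not apart (0.60). Slco1a6 read 204 CPM in 129S2_SvPasCrl, inside the WT range, and 275 CPM in DBA_2J (0.52). Slco4c1 was the reverse of Slco1a1, with 24 counts in DBA_2J, or 0.442 CPM (0.283 to 0.658; log2 difference −3.54), and 111 counts in 129S2_SvPasCrl, or 2.20 CPM (1.81 to 2.64; −1.35).

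The MRP genes Abcc2 and Abcc4 were low in both strains. Abcc2 read 216 CPM in 129S2_SvPasCrl and 166 CPM in DBA_2J (log2 differences −1.12 and −1.505). Abcc4 read 28.9 and 20.1 CPM (−1.02 and −1.54). Every one of the 8 C57BL/6N libraries stood above both strain libraries for these 2 genes. Abcc3 lay inside the WT range in both, at 2.83 and 2.82 CPM. Abcg2 read 367 CPM in 129S2_SvPasCrl and 499 CPM in DBA_2J, and Slc47a1 875 and 1026 CPM, with no log2 difference beyond 0.28 in size.

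Related genes were taken from 6 lists. The median log2 fold changes, beside −0.0057 for all tested genes, were −0.29 for other SLCO genes, −0.19 for other ABC genes, −0.23 for organic ion carriers, 0.018 for receptors and scaffolds, 0.096 for NRF2 targets and −0.23 for androgen-responsive genes. Among 6 tested SLCO genes outside the 10, edgeR called 0, and 4 had an unadjusted edgeR p under 0.05. Such a p was common over all genes: Abcb1a, with an unadjusted edgeR p of 0.0455, had rank 3886 of 15547. DESeq2 called 3 of the 6, and 2373 of all 15547 tested genes. Slco1a5 read 1.03 ± 0.178 CPM in KO and 2.04 ± 0.701 in WT (log2 fold change −0.97, SE 0.29), and the prostaglandin carrier gene Slco2a1 32.4 ± 3.58 and 25.4 ± 3.73 (0.36, SE 0.11). Among 8 other genes of the Abcb, Abcc and Abcg families 2 fell (4.68% of all tested genes did) and 0 rose. These were Abcc1, which encodes the widespread pump MRP1 (−0.31, SE 0.08), and Abcc9, a potassium channel subunit of vascular cells (−0.59, SE 0.17). Each call rested on nearly all libraries: with 1 left out, Abcc1 passed in 1 of 8 edgeR fits (the one lacking WT replicate 2), and Abcc9 in 1 of 8 (the one lacking KO replicate 1), with adjusted p up to 0.095 and 0.148 in the rest. Exons of Abcc9 overlap those of 5330439B14Rik by 158 bases.

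Carriers that take up or exchange organic ions fell in 4 of 17 members (4.68% of all tested genes) and none rose. Slc22a8 encodes OAT3, the blood-facing anion carrier that feeds the luminal pumps. It read 661 ± 47.1 CPM in KO and 898 ± 45.8 in WT (log2 fold change −0.44, SE 0.07). Slc22a13 (−0.51, SE 0.09) and the luminal anion carrier genes Slc17a3 (−0.50, SE 0.11) and Slc17a1 (−0.23, SE 0.05) also fell. Without KO replicate 1 the edgeR adjusted p of Slc17a1 was 0.0504. The cation carrier gene Slc22a2, whose product works in series with that of Slc47a1, read 405 ± 10.99 CPM in KO against 407 ± 33.0 in WT and did not pass.

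Of 14 receptors, tubule transcription factors and scaffold genes, Nr1i2 alone rose in edgeR (6.32% of all tested genes did). It encodes PXR, a nuclear receptor that responds to foreign chemicals and is known to induce P-glycoprotein genes. It read 16.6 ± 1.5 CPM in KO and 9.61 ± 0.851 in WT (log2 fold change 0.79, SE 0.10, edgeR adjusted p = 0.000741). Both strain libraries lay lower, at 6.80 CPM in 129S2_SvPasCrl and 4.37 CPM in DBA_2J. The part of Nr1i2 in the level of Abcb1b was not tested. NRF2 target enzymes rose in 3 of 10 members (6.32% of all tested genes), Hmox1 (0.92, SE 0.17), Slc7a11 (0.77, SE 0.18) and G6pdx (0.47, SE 0.07), while Nqo1 read 121 ± 19.8 CPM in KO and 120.0 ± 9.68 in WT. Slc7a11 failed in 3 of 8 edgeR fits with 1 library left out, those lacking WT replicate 2 or KO replicate 1 or 2 (adjusted p up to 0.0655).

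Androgen-responsive kidney genes other than Slco1a1 fell in 2 of 8 members (4.68% of all tested genes). Slc7a13, an amino acid carrier of the last proximal segment, read 273 ± 27.2 CPM in KO and 552 ± 121 in WT (log2 fold change −1.01, SE 0.13). Kap, a kidney androgen-regulated protein gene, read 18784 ± 2894 and 25123 ± 874 CPM (−0.42, SE 0.11). Kap passed in 3 of 8 edgeR fits with 1 library left out and failed in those lacking WT replicate 1, 2 or 3 or KO replicate 1 or 2 (adjusted p up to 0.074). The summed level of the list ran from 19258 to 26714 CPM in KO and from 29969 to 32357 CPM in WT, and was 32183 CPM in 129S2_SvPasCrl and 41431 CPM in DBA_2J. Kap made up 75.8% to 82.9% of the sum in the KO and WT libraries. Without Kap the sums were 4264 to 5425 CPM in KO and 5117 to 6241 CPM in WT, and the groups overlapped, a split made after the values were seen. The part of androgen response in the Slco1a1 fall was not tested.

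Cell type markers were read beside the results, since in whole kidney fewer cells of a type and less RNA per cell cannot be told apart. Every listed marker found in the tables had counts, and proximal tubule markers were abundant in every library, as the label kidney requires. Markers of the S3 segment fell in 1 of 7 (4.68% of all tested genes), Slc7a13, shared with the androgen list, with summed levels of 2198 to 2718 CPM in KO and 2517 to 3640 in WT. Atp11a made up 48.4% to 59.7% of these sums. Without Atp11a they were 1068 to 1247 CPM in KO and 1299 to 1729 in WT, without overlap. That split was made after the values were seen. Slc5a1 of the same list read 107 ± 27.2 CPM in KO and 77.3 ± 15.8 in WT (log2 fold change 0.48, SE 0.17) and passed in DESeq2 but not in edgeR. The S3 sums were 4404 CPM in 129S2_SvPasCrl and 6436 CPM in DBA_2J, the library with the highest Slco1a1. Markers of the S1 segment rose in 1 of 6 (6.32% of all tested genes; Slc7a7, which shares 228 exon bases with Oxa1l; sums of 6168 to 7692 CPM in KO and 6535 to 7148 in WT). Tubular injury markers rose in 7 of 11 (6.32% of all tested genes), namely Havcr1, Sox9, Vcam1, Krt20, Cdkn1a, Spp1 and Krt8 (sums of 1288 to 2111 CPM in KO and 1023 to 1377 in WT). Cdkn1a and Spp1 were not called in voom, nor in edgeR without KO replicate 1 or 2 or WT replicate 2, 3 or 4. Spp1 also failed without WT replicate 1, in DESeq2 and with upper quartile scaling. Spp1 made up 44.3% to 62.5% of the sums. Without Spp1 they were 616 to 791 CPM in KO and 532 to 759 in WT, with overlap.

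P-glycoprotein genes are also used by endothelium and some leukocytes. Endothelial markers fell in 2 of 10 (4.68% of all tested genes), Kdr and Tie1, with sums of 233 to 366 CPM in KO and 339 to 408 in WT. Neither passed in 6 of 8 edgeR fits with 1 library left out. These lacked KO replicate 1, 2 or 4 or WT replicate 2, 3 or 4. DESeq2 called 5 of the list lower, and 1074 of all 15547 tested genes. Macrophage markers fell in 1 of 10 (4.68% of all tested genes), Csf1r, with sums of 77.3 to 99.8 CPM in KO and 99.0 to 111 in WT. Without Csf1r the sums were 43.8 to 66.5 CPM in KO and 42.8 to 53.9 in WT, and the list's median log2 fold change was 0.089. Cd68 read 3.88 ± 1.03 CPM in KO and 2.47 ± 0.609 in WT (log2 fold change 0.65, SE 0.23) and passed in 1 of 8 edgeR fits that each lacked 1 library, the one lacking KO replicate 2. T cell markers were called in 0 of 6 by edgeR and by DESeq2 (1 at an unadjusted p under 0.05 in edgeR), with sums of 2.69 to 4.98 CPM in KO and 2.34 to 5.21 in WT. Fibroblast markers were called in 0 of 8 by both tools (1 at an unadjusted p under 0.05 in edgeR; 116 to 165 CPM and 148 to 169). Of 7 hepatocyte markers 1 rose (6.32% of all tested genes), Fga. The list's sums were 224 to 292 CPM in KO and 190.2 to 297 in WT, with a median log2 fold change of −0.29. Alb read 5.12 ± 2.49 CPM in KO and 13.2 ± 8.61 in WT (−1.37, SE 0.41, edgeR adjusted p = 0.0554) and was called lower with title form as a term, after thinning and with every gene of at least 1 count. The part of cell composition in the transporter results was not tested.

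Genes with the most similar pattern were sought by Pearson correlation of log2 CPM over the 10 libraries, given as a description because the libraries fall into genotype and strain groups. For Abcb1b these were Agtrap (r = 0.96), Myh14 (0.94) and Mrpl33 (0.94). Slco1a1 was most like Slco1a5 (0.98), Acsm2 (0.97) and Adh5 (0.97). Of the 100-base windows of Slco1a5, 32 of 2487 also occur in Slco1a1, which is far more abundant, and the part of shared reads in that likeness was not tested. Slco4c1 was most like the class I-like genes H2-T9 and H2-T22 (0.99 each), which share 1639 exon bases and so their reads, and Lpar2 (0.98). Over the 8 C57BL/6N libraries alone the r values were lower for all 9 genes. They ran from 0.69 for Lpar2 and 0.76 for Myh14 to 0.95 for Acsm2. The 9 genes were picked for their r over the 10 libraries, so lower values in the 8 were likely in advance.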

How the data were processed

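Whole-kidney polyadenylated RNA of 10 animals was read in single-end mode, as the labels state. STAR, featureCounts and edgeR, with builds mm10 and GRCm38, are named in the submitters' processing notes. The counting used featureCounts 1.5.2 on primary alignments and exons of UCSC mm10 genes, with a read over several genes given to each and no strand setting, per the file headers. The authors deposited raw counts per library and in a joined matrix, which matched in all 10 columns. Their deposited log2 values (13645 genes) equalled voom log2 CPM with TMM scaling to within 4.97e-14 and were not tested.

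The labels gave the groups. Replicates are numbered by accession and do not pair animals. KO and WT counts were tested in edgeR 4.0.16 (R 4.3.3; filterByExpr, TMM, quasi-likelihood F test), with Benjamini-Hochberg adjustment over 15547 genes and calls under 0.05. The biological coefficient of variation was 12.3%. At 1 CPM the shallowest library has about 19.79 counts. The fit was tested on simulated data with 50 changed genes at each fold. It recovered 10% of 1.25-fold changes, 56% at 1.5-fold, 76% at 2-fold and 94% at 4-fold, with 6 false calls. Fewer genes were changed there than the 1710 called in the data. The adjusted p depends on that share, so these rates need not hold for the real fit. CPM and log2 CPM (prior count 2) used TMM scaling over 10 libraries. Named were the 10 genes, Ehhadh, up to 4 called genes per list by smallest p (2 where none passed), and the 3 most similar genes for the most significant member in each direction and for the member farthest from WT in a strain library. Others named with a list, such as Slc22a2 and Nqo1, were chosen after their values were seen, and some list members are not reported here. Emr1 stood for Adgre1. The genes, lists and tests were chosen with earlier results of these data known. Alternatives were DESeq2 1.42.0, limma 3.58.1 voom, other scaling and filters, title form, thinning to the smallest library and leaving out each library.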

Additional observations from a re-analysis of the deposited data

Results flagged for a closer look

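Among the 20 sets of 4 values (10 genes in KO and in WT), 1 had a library far from the other 3. Slco4c1 read 9.336 CPM in KO replicate 4, and the gap to the next library was 0.923 of the whole KO range, above the critical value of 0.829. Chance alone gives such a gap in about 1 of 20 sets. The same library had the lowest endothelial sum (233 CPM) and the lowest androgen list sum (19258 CPM) of the 8 C57BL/6N libraries. Kap alone made up 75.8% to 82.1% of the androgen list sum in KO. The tubular injury sum of KO replicate 4 was the highest of the 8 libraries, at 2111 CPM.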

How the results depend on the processing

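Leaving out 1 library at a time gave 1005 to 1638 called genes (1710 with all libraries), the lowest without KO replicate 1 (1005), WT replicate 3 (1006) or KO replicate 2 (1068), and 1 to 2 called transporter genes. Slco1a1 was lost in 5 of these 8 fits, and Slco1a6 was gained without KO replicate 4 or WT replicate 2 (edgeR adjusted p = 0.0299 and 0.0402). Fitting only the 2 KO and 2 WT animals whose titles begin with E gave 143 called genes and 0 called transporter genes in edgeR, where 3 had an unadjusted p under 0.05 and DESeq2 was not run. The share of all genes under that unadjusted p in this fit was not counted. The other 4 animals gave 1723 called genes and 3 called transporter genes. Among organic ion carriers edgeR called 0 of 17 with the leading E and 7 without it. The counts were 0 and 6 of 10 NRF2 targets, 1 and 4 of 8 androgen-responsive genes, and 0 and 1 of 14 receptors and scaffolds. They were 0 and 3 of 6 other SLCO genes and 0 and 0 of 8 other ABC genes. Tubular injury markers were called in 3 of 11 with the leading E and in 8 without it. With the leading E alone Abcc2 turned to 0.0050, and without it Abcc3 turned to 0.35, Abcg2 to −0.088 and Slco4c1 to −0.023. Abcc3 also turned with voom (0.0036) and after thinning (0.071), and ran from −0.19 to 0.22 with 1 library left out. The corresponding ranges were −0.0058 to 0.12 for Abcg2 and −0.016 to 0.29 for Slco4c1. None of these 4 genes passed under any setting, and the cause was not tested. Abcb1b passed in all 8 fits with 1 library left out and in the 8 other fits of all libraries. The 20 strain differences moved by less than 1 SD of WT under either other setting. The counts in strain libraries limit Slco4c1 most, with 24 in DBA_2J.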

Other observations

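Levels of other carriers of the organic ion list in the strain libraries, which have no replicate, are given for genes chosen after their values were seen. Slc10a2, which encodes the luminal bile acid carrier ASBT, read 56.7 CPM in 129S2_SvPasCrl and 35.6 CPM in DBA_2J, against 10.01 ± 1.65 in WT and 8.94 ± 2.81 in KO (SD, n = 4 each). Slc51a, which encodes a subunit of the blood-facing bile acid exporter, read 177 and 146 CPM against 50.9 ± 16.1 in WT. Its partner subunit gene Slc51b, which shares 91 exon bases with Rasl12, read 25.2 and 25.1 CPM against 21.7 ± 2.09 in WT. Slc22a12, which encodes the luminal urate exchanger URAT1, was lower in both strains, at 1684 and 1895 CPM against 3060 ± 61.9 in WT. Slc22a8 read 333 CPM in DBA_2J and 753 CPM in 129S2_SvPasCrl against 898 ± 45.8 in WT.

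Among androgen-responsive genes, DBA_2J, the library with the highest Slco1a1, also read high for Odc1 (1914 CPM against 428 ± 110 in WT), Cyp4a12a (1292 against 307 ± 43.4) and Gusb (231 against 59.6 ± 18.3). In 129S2_SvPasCrl, Odc1 read 652 CPM, Cyp4a12a 647 CPM and Gusb 44.4 CPM. These genes were chosen after their values were seen, and the part of androgen response was not tested.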
